A study of Mus musculus with 23 samples.

Results

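A set of 34 hypoxia and glycolysis genes, targets of the hypoxia-inducible factors and enzymes of glycolysis, was followed by name among the 47643 genes of an expression table of 23 mouse RNA-seq libraries. The set holds 2 glucose and lactate transporters, 14 glycolytic enzymes, 3 switches of glycolytic flux, 2 oxygen sensors, 2 secreted factors, 2 collagen prolyl hydroxylases, the pH regulator Car9, and 8 further targets of the hypoxia-inducible factors. Each of the 34 passed the filter on low values in every comparison. The study asked how loss of the nuclear receptor NR2F6 in melanoma cells alters gene expression, in culture and in tumors.

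The libraries came from B16F10, a mouse melanoma cell line, as cultured cells, as whole (bulk) tumors, or as tumor cells sorted with magnetic beads after collagenase digestion and depletion of stromal cells; the study checked the purity of sorted cells with a CD45 antibody. In each of these 3 sample types there were 2 control libraries labelled NR2F6 wild type and 2 libraries for each of the sgRNAs sg492 and sg495, labelled NR2F6 knockout. Editing used Cas9 protein with a Cy3-labelled sgRNA, after which Cy3-positive cells were collected by flow cytometry. The methods describe no isolation of separate clones. Another 5 libraries, of wild-type genotype, are labelled IgG control (2) or anti-PD1 (3), an antibody to an immune checkpoint receptor, and their labels give no sample type. Per the methods, B16F10 tumors were grown under the skin of young adult male C57BL/6 mice, with immune-deficient or Nr2f6-deficient hosts in some experiments, and the host of each library is not given. Nothing says whether 2 libraries of a group came from separate animals or cultures, so p-values measure the spread between these libraries only.

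Expression is in TPM, a share of transcripts that is scaled for gene length and adds up to the same total in each library; the study gives a range of read depth over its libraries, and the depth of each is unknown. Nr2f6 was lower with sg495 in each sample type (18.6 and 22.4 TPM against 31.9 and 32.9 TPM in cultured cells, 10.6 and 12.2 TPM against 20.3 and 17.7 TPM in sorted cells). With sg492 it was 19.8 and 25.7 TPM in sorted cells, not below the controls. Summed TPM of 8 melanocyte genes lay between 15286 and 18198 in the 18 libraries of the 3 sample types, and 10 leukocyte genes summed to between 303 and 644 TPM in bulk tumors, 4.15 to 12.7 TPM in sorted cells and 2.20 to 6.17 TPM in cultured cells. In the IgG and anti-PD1 libraries these sums were 1700 to 5194 TPM for melanocyte genes and 4942 to 7541 TPM for leukocyte genes, so these libraries stood apart from the 18 others.

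Cells short of oxygen stop degrading the alpha subunits of the hypoxia-inducible factors (HIF), because the prolyl hydroxylases that mark them for destruction need oxygen. HIF then binds short DNA elements and raises genes for glucose uptake, glycolysis, blood vessel growth, pH control and mitochondrial turnover. In solid tumors, melanoma among them, these genes are used as a readout of low oxygen, and many of them are also expressed at high levels in dividing cells in culture.

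The most abundant members were glycolytic enzymes, although Aldoc, Hk2, Hk1, Pfkl and Pfkp lay below Bnip3 in control cultured cells. In control cultured cells the 14 enzymes together took 3.08% and 3.12% of all TPM, with enolase (Eno1) at 5169 and 5256 TPM and glyceraldehyde-3-phosphate dehydrogenase (Gapdh) at 4763 and 4739 TPM. At the other end stood Pfkfb4, a kinase that makes an activator of phosphofructokinase, at 2.37 and 2.39 TPM, and the oxygen sensor Egln3 at 7.93 and 8.44 TPM. The enzymes took 2.91% and 3.09% of TPM in control sorted cells, close to cultured cells, but 2.16% and 2.21% in control bulk tumors and between 1.43% and 1.996% in the IgG and anti-PD1 libraries. Pgk1 and Pgam1 have near-identical copies in the table (Pgk1-rs7 at 218 to 1019 TPM, Pgam1-ps2 at 23.5 to 109 TPM) among which shared reads were divided by estimation, so their own levels are uncertain.

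**Figure D1:**
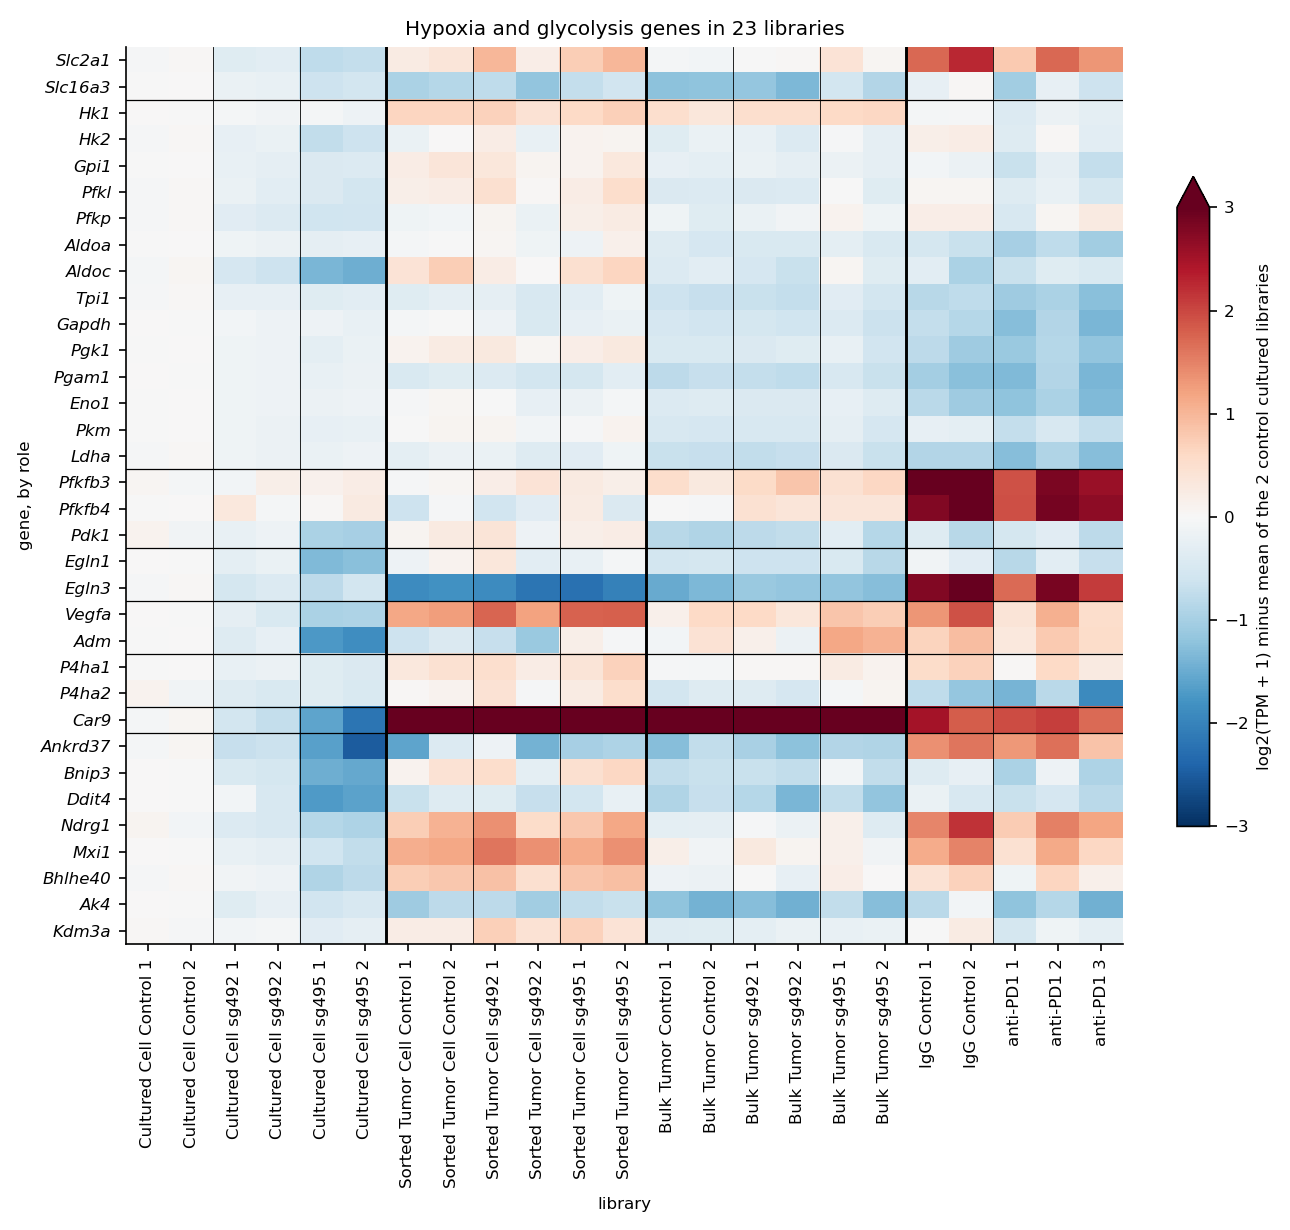
Levels of the 34 genes (rows, grouped by role) in 23 libraries (columns), as log2(TPM + 1) minus the mean of the 2 control cultured libraries. Car9 is above the colour scale in sorted and bulk tumor libraries, the sg495 cultured libraries are blue for most genes, and Pfkfb3 and Pfkfb4 are deep red only in the IgG and anti-PD1 libraries.

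Control tumor cells were first compared with control cultured cells, to see how the set differs between tumors in mice and culture. Sorted cells had also been through digestion and separation, and the part of this cannot be told apart from growth in mice. The test was limma on log2(TPM + 1) of all 18 libraries, and a member counted as called where its adjusted p (Benjamini-Hochberg) lay under 0.05 and the groups differed by 1.5-fold or more. In sorted tumor cells 6 of the 34 were higher and 3 were lower than in cultured cells, 26.5% against 20.2% of all 13152 genes tested (12.4% higher and 7.79% lower); the median of the 34 was 0.03 on the log2 scale and that of all genes 0.00. The share of members called was thus near that of all genes, and members differed in both directions.

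Car9, a membrane carbonic anhydrase with a role in pH control and a classical HIF target, had by a wide margin the largest difference of the 34. It was at 14.6 and 16.1 TPM in control cultured cells, 308 and 333 TPM in control sorted cells and 145 and 155 TPM in control bulk tumors. These groups did not overlap, and the log2 fold change was 4.30 (SE 0.21) for sorted and 3.21 (SE 0.21) for bulk against cultured. The angiogenic growth factor Vegfa was at 185 and 197 TPM in sorted and 82.9 and 80.5 TPM in cultured controls (log2 fold change 1.21, SE 0.16). Mxi1, an antagonist of Myc, was at 41.2 and 42.97 TPM in sorted and 18.99 and 18.6 TPM in cultured controls (1.12, SE 0.13). Ndrg1, a stress-responsive gene, was at 109.5 and 136 TPM in sorted and 68.6 and 61.8 TPM in cultured controls (0.90, SE 0.23). The transcriptional repressor Bhlhe40 (0.78) and hexokinase 1, Hk1 (0.65), were the other 2 that rose. The Ndrg1 call was lost without control cultured replicate 2 (adjusted p = 0.0507) or control sorted replicate 2 (adjusted p = 0.0643).

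The members that were lower in sorted cells are also known HIF targets. Egln3, an oxygen-sensing prolyl hydroxylase, was at 1.47 and 1.60 TPM in sorted and 7.93 and 8.44 TPM in cultured controls (log2 fold change -1.86, SE 0.15). Slc16a3, the lactate exporter MCT4, was at 140.3 and 149.6 TPM against 269 and 276 TPM (-0.91, SE 0.13), and the mitochondrial adenylate kinase Ak4 was at 23.4 and 28.4 TPM against 50.5 and 49.1 TPM (-0.92, SE 0.15). Where the mean of the control, sg492 and sg495 groups of each type was compared in place of the controls, 11 members were called (10 higher, 1 lower), and Slc16a3 and Ak4 were not among them.

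In control bulk tumors, Car9 alone was higher than in cultured cells and 9 members were lower, 29.4% in all against 17.9% of all genes tested and 26.5% lower against 4.39% (13.5% of all genes were higher). Here 28 of the 34 had a negative log2 fold change (50% of all genes did), and the median was -0.41 against 0.00. Egln3 was at 2.23 and 2.58 TPM, Ak4 at 20.9 and 17.96 TPM, Slc16a3 at 115 and 118 TPM and Pdk1 at 65.4 and 62.3 TPM in the bulk controls. Beside Egln3 (-1.43), Ak4 (-1.32) and Slc16a3 (-1.22), the lactate dehydrogenase Ldha (2261 and 2231 TPM against 3534 and 3674 TPM, -0.68), phosphoglycerate mutase Pgam1 (-0.74), triose-phosphate isomerase Tpi1 (-0.66), the pyruvate dehydrogenase kinase Pdk1 (-0.86), the mTOR inhibitor Ddit4 (-0.80) and the mitophagy receptor Bnip3 (-0.70) fell. Markers of other cells were higher in control bulk tumors than in control cultured cells: erythroid genes summed to 565 and 1769 TPM against 0 TPM, fibroblast genes to 340 and 403 TPM against 5.49 and 6.42 TPM, leukocyte genes to 303 and 390 TPM against 2.20 and 2.57 TPM, muscle genes to 134 and 201 TPM against at most 11.49 TPM, and endothelial genes to 94.3 and 103 TPM against 17.0 and 19.1 TPM. Their part in these differences was not tested; in whole tissue, fewer tumor cells and less RNA per tumor cell cannot be told apart. The count was 6 (3 higher, 3 lower) where the 3 groups of each sample type were averaged, and the Bnip3 value then turned to 0.06. The Bnip3 call was also lost without either control library of bulk tumors or of cultured cells (highest adjusted p = 0.104), and the Ddit4 call without control bulk replicate 1 (adjusted p = 0.0657).

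Against control sorted cells, control bulk tumors were lower in 11 members and higher in 1 (35.3% against 12.7% of all genes tested; lower in 32.4% against 4.46%, with 8.27% of all genes higher). The 11 were Ndrg1 (-1.17), Mxi1 (-1.09), Car9 (-1.09), Pdk1 (-1.04), Bnip3 (-0.98), Bhlhe40 (-0.94), Aldoc (-0.93), Vegfa (-0.84), Pgk1 (-0.63), Pfkl (-0.62) and Kdm3a (-0.60), on the log2 scale. In the bulk controls Ndrg1 was at 53.00 and 54.3 TPM and Mxi1 at 21.3 and 17.3 TPM. Adm, the vasodilator peptide adrenomedullin, was the exception at 15.52 and 22.4 TPM in bulk and 10.3 and 11.9 TPM in sorted controls (0.71, SE 0.18); this call was lost without control bulk replicate 2 (0.45, adjusted p = 0.121) or control sorted replicate 1 (adjusted p = 0.081). The calls of Pgk1 and of Bnip3 were lost without control sorted replicate 2, and those of Pfkl and Kdm3a under quantile normalization, with both values at -0.58. In control sorted cells the erythroid genes summed to 5.94 and 7.34 TPM, the fibroblast genes to 3.31 and 5.63 TPM and the leukocyte genes to 4.15 and 5.52 TPM, far below the bulk controls. The melanocyte genes summed to 15642 and 16312 TPM in control sorted cells, near the 15588 and 16324 TPM of control bulk tumors. The part of these markers was not tested. The cells of the sorted libraries spent time in digestion and separation that bulk tumors did not, and its part in this comparison cannot be told apart from the sample type.

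The guides were compared with control in each sample type, to see how the set differs between cells edited at Nr2f6 and control cells. With sg495 in cultured cells 17 of the 34 were lower and none was higher, 50% against 2.77% of all 12007 genes tested (2.03% lower and 0.733% higher). A negative log2 fold change was found for 32 of the 34 (50.3% of all genes), each with both sg495 libraries below both controls (94.1%, against 28.9% of all genes), and the median was -0.56 against 0.00 for all genes. Pfkfb3 (0.18, adjusted p = 0.327) and Pfkfb4 (0.16, adjusted p = 0.625), which set the level of fructose-2,6-bisphosphate, were the 2 above 0 and were not called. Without the fold threshold, which holds back other genes as well, the count was 31, and the matching share of all genes is not given. Leaving out a library gave between 13 and 16.

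**Figure D2:**
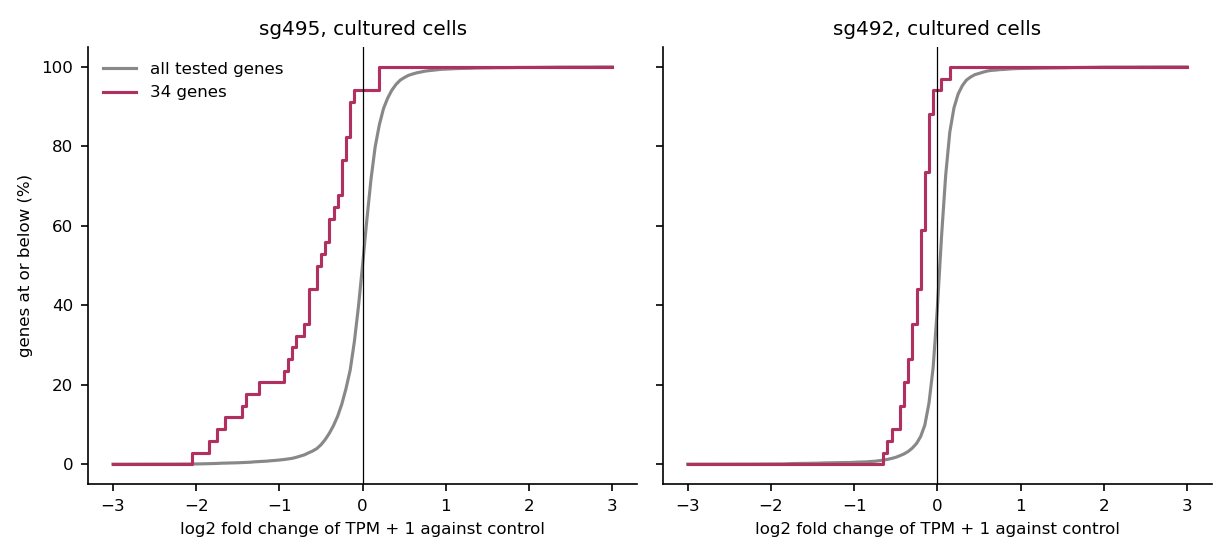
Share of genes (y axis, %) at or below each log2 fold change (x axis) for all genes tested in cultured cells (grey) and for the 34 genes (red), with sg495 (left) and sg492 (right). The red curves lie to the left of the grey ones, with medians of -0.56 for sg495 and -0.24 for sg492.

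To show what stands in front of these genes, 250 bases before the RefSeq transcription start of the 5 members with the lowest log2 fold changes are given with that of Pfkfb3, which had the highest. They are RefSeq sequence of GRCm38.p6, 5′ to 3′ on the gene's strand, at chr8:45999851-46000100 (- strand) for Ankrd37, chr4:43506776-43507025 (+ strand) for Car9, chr7:110627407-110627656 (+ strand) for Adm, chr10:59951771-59952020 (- strand) for Ddit4, chr7:138909507-138909756 (- strand) for Bnip3 and chr2:11553930-11554179 (- strand) for Pfkfb3. Capitals mark ACGTG or GCGTG, the core letters of the HIF element, and their reverse complements CACGT and CACGC, which overlap each other in CACGTG. The gene starts of the GENCODE annotation lie elsewhere: 5857 bases further upstream for Ankrd37, whose window is thus inside the GENCODE gene, 148 for Pfkfb3, 64 for Ddit4, 60 for Car9 and 13 for Bnip3, and 4 bases downstream for Adm.
Ankrd37: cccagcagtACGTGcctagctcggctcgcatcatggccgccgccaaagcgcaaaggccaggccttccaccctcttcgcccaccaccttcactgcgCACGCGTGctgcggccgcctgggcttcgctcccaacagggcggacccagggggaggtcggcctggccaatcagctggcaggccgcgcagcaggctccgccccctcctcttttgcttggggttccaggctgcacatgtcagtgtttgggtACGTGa
Car9: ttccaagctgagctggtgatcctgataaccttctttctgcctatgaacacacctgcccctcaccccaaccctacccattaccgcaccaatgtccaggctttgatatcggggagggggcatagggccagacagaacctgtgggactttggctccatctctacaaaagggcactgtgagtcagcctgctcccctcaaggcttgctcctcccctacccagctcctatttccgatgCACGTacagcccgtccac
Adm: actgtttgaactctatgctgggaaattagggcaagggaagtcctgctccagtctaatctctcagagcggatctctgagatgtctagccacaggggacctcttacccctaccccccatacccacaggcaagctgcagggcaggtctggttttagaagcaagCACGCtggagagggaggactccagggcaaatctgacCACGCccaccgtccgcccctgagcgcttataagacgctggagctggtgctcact
Ddit4: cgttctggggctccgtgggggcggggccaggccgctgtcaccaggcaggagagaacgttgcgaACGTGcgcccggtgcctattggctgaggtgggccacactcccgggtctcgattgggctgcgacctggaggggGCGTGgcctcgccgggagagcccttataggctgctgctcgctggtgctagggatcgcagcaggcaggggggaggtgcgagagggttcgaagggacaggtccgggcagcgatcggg
Bnip3: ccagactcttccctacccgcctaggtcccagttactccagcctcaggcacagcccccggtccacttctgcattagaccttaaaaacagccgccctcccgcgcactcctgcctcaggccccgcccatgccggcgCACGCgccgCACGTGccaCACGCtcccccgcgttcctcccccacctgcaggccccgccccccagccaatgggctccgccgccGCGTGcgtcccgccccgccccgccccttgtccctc
Pfkfb3: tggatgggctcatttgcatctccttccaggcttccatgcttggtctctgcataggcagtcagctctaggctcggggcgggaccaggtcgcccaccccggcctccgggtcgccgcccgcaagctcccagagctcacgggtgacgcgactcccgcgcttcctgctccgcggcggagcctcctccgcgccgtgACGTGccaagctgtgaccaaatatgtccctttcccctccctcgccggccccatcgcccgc

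Promoter windows of 300 bases (250 before and 50 after the start) were listed for 32 of the 34 members; Ndrg1 and Bhlhe40 had none. ACGTG or its complement was in 26 of the 50 windows of members (52%), in 26.2% of the windows of genes tested in cultured cells, and in 19.6% of all 32851 windows. GCGTG or its complement was in 58%, 52.1% and 32.4% of them. The first listed window held ACGTG for 10 of 15 members called lower with sg495 in cultured cells and for 7 of the other 17 (26.96% of genes tested in cultured cells), and any listed window for 12 and 11 of them (30.5%). For GCGTG the first window gave 9 of 15 and 10 of 17 (54.1%), and any window 10 and 12 (58.3%). The printed window of Adm held GCGTG matches only, and that of Pfkfb3, which did not fall, held an ACGTG match. The members were chosen as HIF targets and glycolytic enzymes, so differences from all genes in these shares may come from that choice. Whether HIF had a part in the lower values was not tested.

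By role, both secreted factors, the pH regulator and both oxygen sensors fell. Adm was at 16.2 and 16.6 TPM in control and 4.25 and 3.81 TPM in sg495 cultured cells (log2 fold change -1.79, SE 0.09, adjusted p = 0.000811). Vegfa was at 82.9 and 80.5 TPM and 42.00 and 42.4 TPM (-0.94, SE 0.07, adjusted p = 0.00192). Car9, already low in culture, was at 14.6 and 16.1 TPM and 4.41 and 2.57 TPM (-1.89, SE 0.20, adjusted p = 0.00476). The oxygen sensor Egln1, the prolyl hydroxylase chiefly responsible for marking HIF-1 alpha in normal oxygen, was at 101 and 100.02 TPM and 39.6 and 41.6 TPM (-1.29, SE 0.05, adjusted p = 0.000691). Egln3, itself a HIF target, was at 7.93 and 8.44 TPM and 4.31 and 5.26 TPM (-0.67, SE 0.12, adjusted p = 0.0222). In none of these genes did the groups overlap. The Egln3 call was lost without any one of the 4 libraries (adjusted p between 0.0542 and 0.113).

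**Figure D3:**
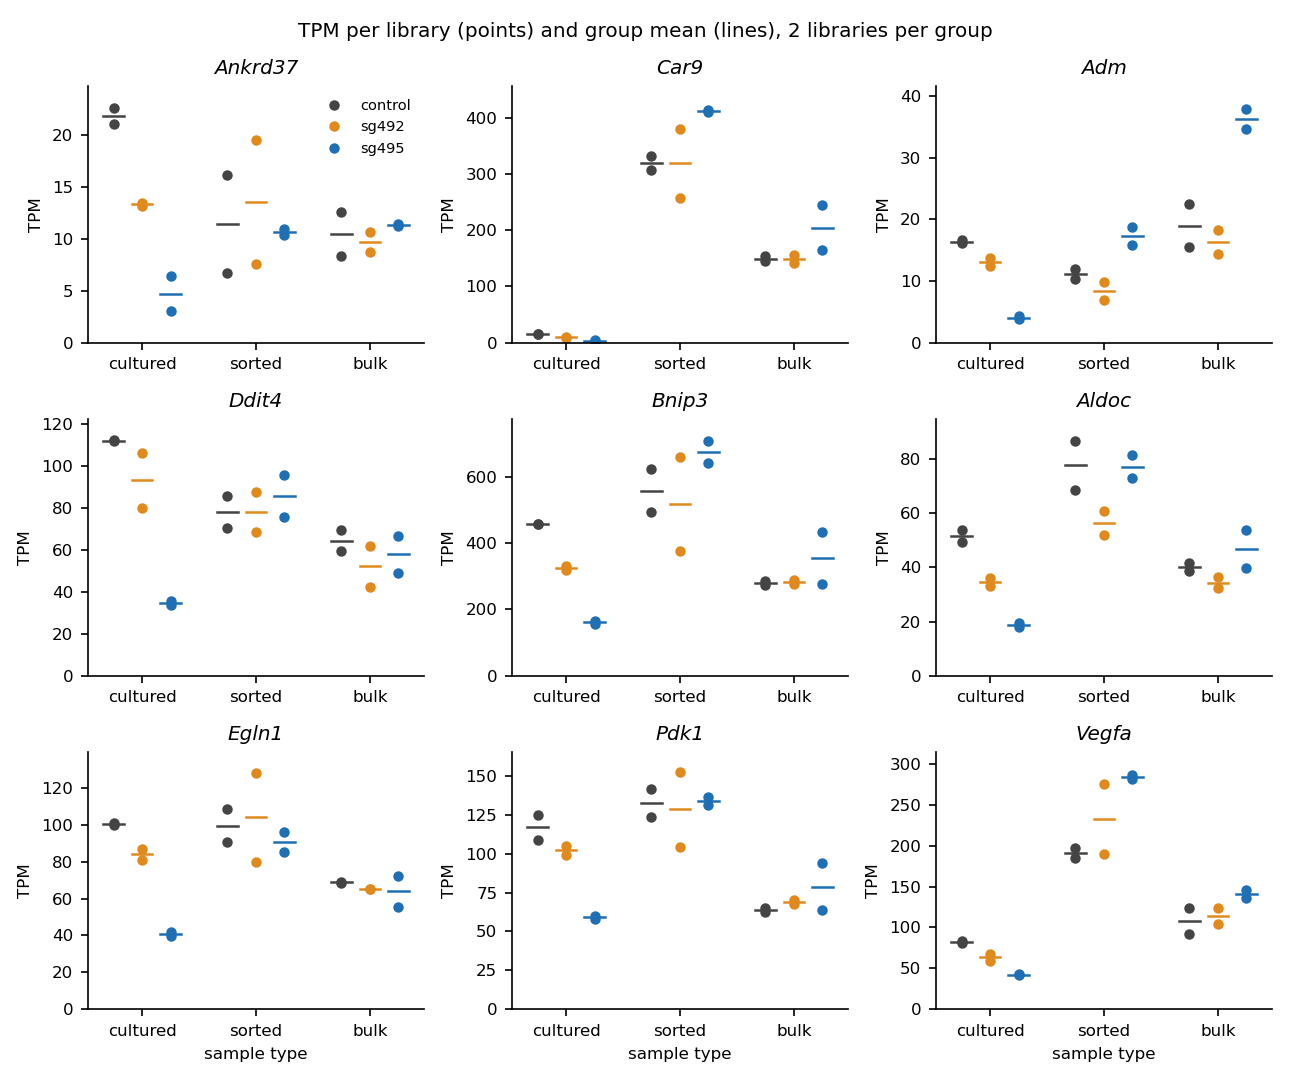
TPM (y axis) of 9 members in each library (points) with group means (lines), by sample type (x axis) and guide (colour), 2 libraries per group. The sg495 libraries are lowest in cultured cells for all 9 genes, none of which was called in sorted cells or bulk tumors.

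Of the 8 further HIF targets 6 fell. Ankrd37, an ankyrin-repeat protein often used as a hypoxia marker, was at 21.1 and 22.6 TPM in control and 6.43 and 3.04 TPM in sg495 cells, and had the lowest log2 fold change of the set (-2.06, SE 0.26, adjusted p = 0.00786); the call was lost without either control library (adjusted p = 0.0616 and 0.0638). Ddit4 was at 113 and 112 TPM and 33.6 and 35.9 TPM (-1.66, SE 0.12, adjusted p = 0.00189). Bnip3 was at 457 and 456 TPM and 165 and 157 TPM (-1.498, SE 0.04, adjusted p = 0.000197). Both pairs of libraries lay close together and far from each other in these last 2 genes. Ndrg1 (68.6 and 61.8 TPM against 35.6 and 34.1 TPM), Bhlhe40 (143 and 149.98 TPM against 77.7 and 84.8 TPM) and Mxi1 (18.99 and 18.6 TPM against 12.04 and 10.96 TPM) fell, with log2 fold changes of -0.88, -0.85 and -0.67. Ak4 (-0.53, adjusted p = 0.00670) and the histone demethylase Kdm3a (-0.30, adjusted p = 0.0177) were lower by less than the fold threshold.

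Both transporters fell. The glucose transporter Slc2a1 (GLUT1) was at 87.99 and 93.3 TPM in control and 52.9 and 54.9 TPM in sg495 cells (-0.74, SE 0.05, adjusted p = 0.00181), and Slc16a3 at 269 and 276 TPM and 176 and 187 TPM (-0.59, SE 0.04, adjusted p = 0.00189). Slc16a3 sat at the fold threshold and was no longer called without control replicate 2 (-0.57) or sg495 replicate 1 (-0.54).

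Among the 14 glycolytic enzymes all were lower and 3 were called. Aldolase C (Aldoc), a minor aldolase beside Aldoa, was at 49.5 and 53.7 TPM in control and 19.5 and 17.98 TPM in sg495 cells (-1.41, SE 0.08, adjusted p = 0.000839). Hexokinase 2, Hk2, which traps glucose in the cell, was at 99.1 and 105 TPM and 60.5 and 66.02 TPM (-0.68, SE 0.06, adjusted p = 0.00260). The platelet-type phosphofructokinase Pfkp was at 247 and 259 TPM and 166 and 168 TPM (-0.59, SE 0.04, adjusted p = 0.00189), and its call was lost without control replicate 2 (-0.56). The other 11 enzymes lay between -0.50 (Pfkl) and -0.10 (Hk1), each by less than the fold threshold. Gpi1, which interconverts the hexose phosphates, was at 1557 and 1557 TPM in control and 1144 and 1180.3 TPM in sg495 cells (-0.42, adjusted p = 0.00216), and Tpi1 at 3141 and 3254 TPM and 2504 and 2552 TPM (-0.34, adjusted p = 0.00291). Eno1 was at 5169 and 5256 TPM in control and 4626 and 4705 TPM in sg495 cells (-0.16, adjusted p = 0.0185), and the enzymes together took 2.62% and 2.65% of TPM with sg495 and 2.74% and 2.82% with sg492, against 3.08% and 3.12% in control.

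Pdk1, the pyruvate dehydrogenase kinase, was the switch that fell (125 and 109 TPM against 60.2 and 58.1 TPM, -0.97, SE 0.07, adjusted p = 0.00189). The collagen prolyl hydroxylase subunits P4ha1 (81.96 and 83.98 TPM against 64.2 and 61.5 TPM, -0.40) and P4ha2 (61.3 and 52.9 TPM against 43.95 and 41.2 TPM, -0.41) were lower without reaching the fold threshold.

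Genes outside the set were read from lists of other pathway members. Of 24 further HIF targets tested in cultured cells 11 fell with sg495 and none rose (2.03% of all genes fell), among them the lysyl oxidase-like enzyme Loxl2 (-1.61), the oxidoreductase of disulfide formation Ero1l (-1.31) and Zfp395 (-1.27). Of 10 HIF subunits and regulators, a list that holds the edited gene Nr2f6, 4 fell (2.03% of all genes). Epas1, the HIF-2 alpha subunit, was at 8.93 and 8.67 TPM in control and 4.16 and 4.55 TPM in sg495 cells (-0.87). The ubiquitin ligase Siah1a (-0.77) and Nr2f6 itself (-0.64) fell too. Hif1a was at 115 and 108 TPM in control and 104 and 103 TPM in sg495 cells. Of 18 further glycolysis and pyruvate genes 1 fell (Eno2, -0.81), and of 21 genes of the TCA cycle and respiratory chain none was called.

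Nr2f6 and 2 members, Ankrd37 (chr8:45996902-46005707) and Egln1 (chr8:124908587-124949324), lie on chromosome 8 of GRCm38, where the median log2 fold change of all genes with sg495 was -0.33 in cultured cells, -0.34 in sorted cells and -0.25 in bulk tumors. After the genes of chromosome 8 were centred on their median, both were still called in cultured cells, at -1.73 for Ankrd37 and -0.95 for Egln1, and the count of 17 did not change. The values of genes outside the set, Nr2f6 among them, are given without this centring.

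With sg492 in cultured cells no member was called, against 0.05% of all genes, but the values leaned the same way. Nr2f6 itself was at 26.55 and 31.5 TPM with sg492, against 31.88 and 32.9 TPM in control cultured cells, so 1 library lay close to control. A negative log2 fold change was found for 32 of the 34 (39.1% of all genes), each with both sg492 libraries below both controls (94.1%, against 14.3% of all genes), 28 had an unadjusted p below 0.05 (82.4%, against 10.5%), and the median was -0.24 against 0.03. Ankrd37 was at 13.2 and 13.5 TPM (-0.67, adjusted p = 0.459), Car9 at 10.2 and 8.91 TPM (-0.63, adjusted p = 0.382) and Aldoc at 35.9 and 33.02 TPM (-0.57, adjusted p = 0.140). Bnip3 was at 331 and 317 TPM (-0.49, SE 0.04, adjusted p = 0.0239) and missed the fold threshold only. For all 4, the sg492 libraries lay between control and sg495; both guides were compared with the same 2 control libraries. Pfkfb3 was at 0.04 and, after quantile normalization, below 0.

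In tumors the picture differed. With sg495 no member was called in sorted cells (0.899% of all genes) or in bulk tumors (0.0293% of all genes), and more values lay above than below control. In sorted cells 27 members were higher and 7 lower (43.1% of all genes were higher), with a median of 0.11 against -0.04 for all genes, and 13 did not overlap with the controls in the higher direction (38.2%, against 17.9%). In bulk tumors 31 were higher and 3 lower (63.1% of all genes were higher), with a median of 0.20 against 0.06, and 16 did not overlap in the higher direction (47.1%, against 31.6%). At an unadjusted p below 0.05 there were 4 members in sorted cells (11.8%, against 15.6% of all genes) and 10 in bulk tumors (29.4%, against 15.7%). The sorted split rested on single libraries: it was 17 higher and 17 lower without sg495 sorted replicate 2, 19 and 15 (median 0.03) without control sorted replicate 1, and 29 and 5 (median 0.18) without sg495 sorted replicate 1. That last library had 8.02% of its TPM in mitochondrial genes, against 3.45% to 4.73% in the other 5 sorted libraries, and the part of this in its values was not tested. In bulk tumors the split was 24 and 10 (median 0.06) without sg495 bulk replicate 1. Median-of-ratios scaling moved 4 enzymes in bulk tumors (Gpi1, Aldoa, Gapdh and Pgk1) and 2 in sorted cells (Aldoc and Pgam1) to the other side of 0, and quantile normalization moved Egln3 in bulk tumors and 5 members in sorted cells (Aldoc, Pgam1, Pkm, Ldha and Ankrd37).

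Adm had the largest positive value in both. It was at 10.3 and 11.9 TPM in control and 18.8 and 15.9 TPM in sg495 sorted cells (0.60, SE 0.18, adjusted p = 0.214), and at 15.52 and 22.4 TPM and 37.9 and 34.7 TPM in bulk tumors (0.92, SE 0.19, adjusted p = 0.105). The groups did not overlap in either type, and in a fit of all 18 libraries Adm was called in bulk tumors (adjusted p = 0.012). Vegfa was at 185 and 197 TPM and 281 and 287 TPM in sorted cells (0.57, adjusted p = 0.199) and at 91.4 and 123 TPM and 146 and 136 TPM in bulk tumors (0.40, adjusted p = 0.279). In bulk tumors the leukocyte genes summed to 303 to 390 TPM in control and 583 to 644 TPM with sg495, and the fibroblast genes to 340 to 403 TPM and 550 to 956 TPM; their part in these values was not tested. With sg492, no member was called in sorted cells (0.0388% of all genes) or bulk tumors (0% of all genes; limma gave 1132 genes, 8.3%, an unadjusted p below 0.05, 1 of them a member, and 3 members in sorted cells, against 7.13%), and the medians were -0.03 and 0.01; without 1 library at a time the sorted median ran from -0.17 to 0.14 and the bulk median from -0.02 to 0.05.

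**Figure D4:**
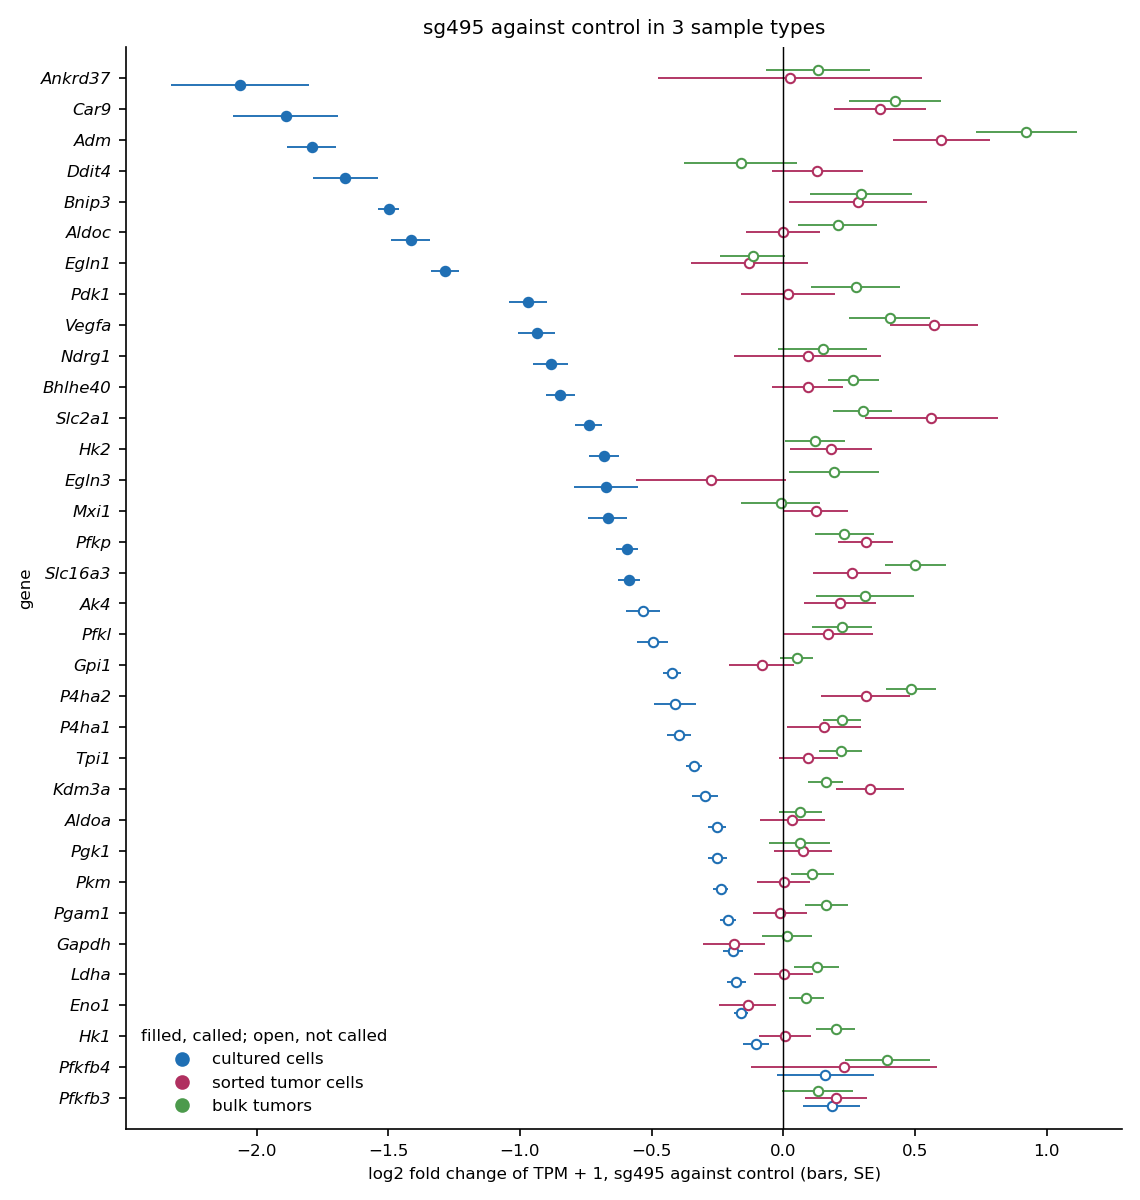
Log2 fold change of TPM + 1 (x axis) with sg495 against control for each of the 34 genes (y axis, ordered by the value in cultured cells), with SE bars; filled points were called. Cultured cells (blue) run from -2.06 to 0.18, with 17 filled points, and no point is filled for sorted cells (red) or bulk tumors (green).

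The difference of the sg495 effect between sample types was tested directly, as an interaction in a fit of all 18 libraries. The effect in sorted cells minus that in cultured cells was above 0 for all 34 members (45.4% of all genes), and 15 were called (44.1%, against 2.51% of all 13152 genes, 1.86% in this direction and 0.646% in the other), with a median of 0.74 against -0.03. The same quantity for bulk tumors was above 0 for 33 members (60.2% of all genes), and 14 were called (41.2%, against 1.76% of all genes, 1.6% in this direction and 0.16% in the other), with a median of 0.81 against 0.06. Both differences use the same cultured libraries.

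Adm differed most, by 2.39 (SE 0.25, adjusted p = 0.000517) in sorted and 2.71 (SE 0.25, adjusted p = 0.00112) in bulk against cultured. Car9 was at 308 and 333 TPM in control and 415 and 411 TPM in sg495 sorted cells, and at 145 and 155 TPM and 245 and 165 TPM in bulk tumors, where in culture it fell; the differences were 2.26 (SE 0.30, adjusted p = 0.00259) and 2.32 (SE 0.30, adjusted p = 0.00520). Bnip3 was at 493 and 622 TPM and 641 and 708 TPM in sorted cells and 274 and 287 TPM and 432 and 275 TPM in bulk tumors, with differences of 1.78 and 1.80. In bulk tumors 1 sg495 library of Bnip3 lay inside the controls and the other above them.

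Ddit4 differed by 1.79 and 1.502, at 70.7 and 85.9 TPM in control and 75.95 and 95.9 TPM in sg495 sorted cells and 59.4 and 69.4 TPM and 66.8 and 49.2 TPM in bulk tumors, where the groups overlapped. Aldoc differed by 1.41 and 1.62, at 68.5 and 86.6 TPM and 72.9 and 81.2 TPM in sorted cells and 38.5 and 41.4 TPM and 53.8 and 39.7 TPM in bulk tumors. Vegfa differed by 1.51 and 1.34. In sorted cells each sg495 library of these 3 genes lay within or above the range of the controls. Egln1 differed by 1.16 and 1.17, at 90.9 and 108 TPM and 85.5 and 96.2 TPM in sorted cells and 68.7 and 68.9 TPM and 72.5 and 55.5 TPM in bulk tumors, and Bhlhe40 by 0.94 and 1.11, at 245 and 259.7 TPM and 263 and 275 TPM in sorted cells and 132 and 130.5 TPM and 168 and 149 TPM in bulk tumors.

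Of the genes of glucose handling, Slc16a3 differed by 0.85 and 1.09, at 140.3 and 149.6 TPM and 164 and 184 TPM in sorted cells and 115 and 118 TPM and 184 and 148 TPM in bulk tumors. Pfkp differed by 0.91 and 0.83, at 232 and 238 TPM and 284 and 301 TPM in sorted cells and 230.3 and 195 TPM and 270.1 and 230.1 TPM in bulk tumors. Hk2 differed by 0.86 and 0.80, at 89.1 and 102 TPM and 109 and 108 TPM and at 78.9 and 89.4 TPM and 98.8 and 84.4 TPM. Pdk1 differed by 0.99 and 1.24, at 123 and 142 TPM and 131 and 137 TPM and at 65.4 and 62.3 TPM and 94.04 and 63.8 TPM. In sorted cells the Pdk1 groups overlapped, and in bulk tumors 1 sg495 library lay inside the controls. Slc2a1 (1.302, at 107 and 117 TPM in control and 152 and 181 TPM in sg495 sorted cells), Mxi1 (0.79, 41.2 and 42.97 TPM and 41.8 and 50.4 TPM) and Kdm3a (0.63, 96.4 and 95.2 TPM and 133 and 109.9 TPM) were called for sorted cells, and P4ha2 (0.90, 38.4 and 43.02 TPM in control and 54.9 and 59.8 TPM in sg495 bulk tumors) and P4ha1 (0.62, 81.04 and 80.1 TPM and 99.2 and 89.4 TPM) for bulk tumors. Ankrd37 had a large value that was not called (2.09, SE 0.59, adjusted p = 0.0725 for sorted cells), and its control sorted libraries, at 6.69 and 16.2 TPM, lay far apart. Of 27 further HIF targets 11 were called in the same direction for sorted cells (1.86% of all genes) and 9 for bulk tumors (1.6% of all genes). Both counts again use the same cultured libraries.

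These counts fell whichever of the 4 cultured libraries was left out, each time with 1 library remaining in that group. In each fit that left out 1 library, the log2 differences of the members called with all libraries stayed above 0. The lowest were 0.49 for Kdm3a in sorted cells and 0.54 for P4ha1 in bulk tumors. For sorted cells 8 members remained called without control cultured replicate 1 or 2, sg495 cultured replicate 1 or 2, or control sorted replicate 1, 10 without sg495 sorted replicate 2, and 14 without sg495 sorted replicate 1, the library with the higher mitochondrial share. Adm, Aldoc, Bhlhe40, Bnip3, Car9, Ddit4, Pfkp and Vegfa were called in each of the 8 fits that left out 1 library. For bulk tumors 4 remained without any one of the 4 cultured libraries, 6 without control bulk replicate 2 and 8 without sg495 bulk replicate 1, and Adm, Aldoc, Bhlhe40 and Car9 were called each time. Without the 2 sg492 sorted libraries, in which Nr2f6 was not lower, both counts were 19, an alternative chosen after the data had been seen.

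The 5 IgG and anti-PD1 libraries held a few members at levels far from those of the other 18. Pfkfb3, a kinase that speeds glycolysis and is strongly expressed in activated myeloid cells, was at 123 and 141 TPM in IgG and 53.03, 101 and 86.3 TPM in anti-PD1 libraries, and at 19.7 and 16.8 TPM in control bulk tumors. Egln3 was at 62.5 and 108 TPM and 28.6, 65.4 and 38.5 TPM, against 2.23 and 2.58 TPM in control bulk tumors. Pfkfb4 was at 21.99 and 32.6 TPM and 11.9, 23.6 and 20.6 TPM, and at no more than 3.65 TPM in any of the other 18. None of these 3 genes, nor Ankrd37, overlapped with the other 18 libraries. Ankrd37 (58.02 and 68.6 TPM in IgG libraries), Slc2a1 (301 and 439.9 TPM) and Ndrg1 (181 and 296 TPM) were high too, whereas Eno1 (2956 and 2504 TPM), Aldoa, Tpi1, Gapdh, Pgk1, Pgam1 and Ldha lay below all 18. How many of all genes separated from the 18 in this way was not counted, so these members cannot be called unusual. The labels do not say what these samples were, no test was made across them and the other sample types, and the part of the leukocyte genes, which moved with these levels, was not tested.

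**Figure D5:**
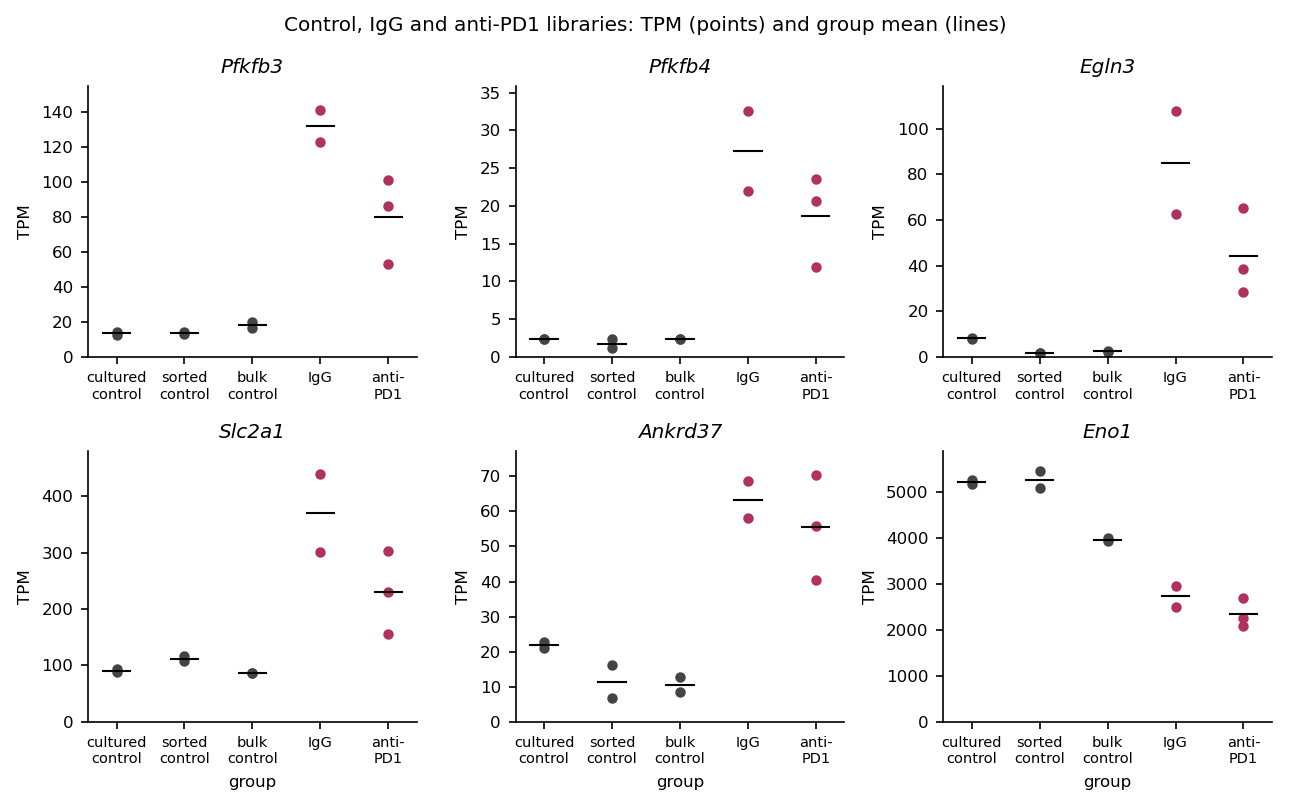
TPM (y axis, from 0) of 6 members in control, IgG and anti-PD1 libraries (points) with group means (lines). The 5 IgG and anti-PD1 libraries lie above the controls of all 3 sample types for Pfkfb3, Pfkfb4, Egln3, Slc2a1 and Ankrd37, and below them for Eno1.

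Anti-PD1 libraries were compared with IgG libraries in a fit of those 5. No member was called, and none of the 13418 genes tested was (0%; limma, with 964 genes, 7.18%, and 4 members at an unadjusted p below 0.05), although 32 of the 34 were lower (53.5% of all genes were), with a median of -0.36 against -0.04 for all genes. In 15 members all 3 anti-PD1 libraries lay below both IgG libraries (44.1%, against 15.8% of all genes). Vegfa was at 206 and 308 TPM in IgG and 106, 173 and 119 TPM in anti-PD1 libraries (-0.95, SE 0.29, adjusted p = 0.608), and Pfkfb3 had a value of -0.76 (SE 0.30). Slc2a1, at 156, 303 and 230.1 TPM in anti-PD1 libraries, overlapped with IgG, as did Egln3 (-0.96, SE 0.39). Quantile normalization moved the median of the 34 by 0.15 and turned Pgk1 and Pgam1 to the other side of 0. Leukocyte genes summed to 6832 and 7541 TPM in IgG and 4942 to 6888 TPM in anti-PD1 libraries, melanocyte genes to 1700 and 4007 TPM and 3408 to 5194 TPM, and mitochondrial genes took 10.2% and 11.4% and 8.63% to 21.9% of TPM; the part of these in the lower values was not tested.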

How the data were processed

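The 34 genes, their roles and the lists of other pathway and marker genes were chosen with earlier results of these data known. Per the labels and methods, the authors trimmed reads with cutadapt 2.3, aligned them to mm10 with STAR 2.7.0d and quantified genes with RSEM 1.3.1. They deposited 1 table of TPM, normalized for gene length and library, for 23 libraries; RSEM divides reads shared by near-identical genes. The estimated counts behind the authors' own test, which needs counts, were not used here, so the depth of each library is unknown, no interval from depth could be given, and low values are less certain.

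Groups came from the labels. Genes whose mean over the libraries of a fit reached 1 TPM were kept, and limma 3.58.1 (R 4.3.3; eBayes with an expression trend) was applied to log2(TPM + 1), with 1 mean per group: 6 libraries of a sample type for the guides, 18 for sample types and interactions, and 5 for anti-PD1 against IgG. Fold changes are on that scale, which understates changes of low genes. P-values were 2-sided and adjusted by Benjamini-Hochberg over all genes tested, with calls at below 0.05 and a fold of at least 1.5. All 34 genes are accounted for by role; values per library are given for members called with a guide, in an interaction or for the treatment, for the 4 largest increases and decreases called in control sorted cells and control bulk tumors against control cultured cells, and for members on chromosome 8. Others are named as examples chosen after their values were seen. The fit was tested on simulated data. Alternatives were a pseudocount of 0.1, no filter or a mean of 5 TPM, quantile normalization, eBayes without a trend, scaling by the median of ratios, a replicate block, no fold threshold, other sets of libraries, centring of chromosome 8 and leaving out each library. Gene positions came from GENCODE M21 and promoters from RefSeq (GRCm38.p6). Tables and plots were made in Python 3.11.15 (pandas 2.3.3, matplotlib 3.10.9).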

Additional observations from a re-analysis of the deposited data

Results flagged for a closer look

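The sg495 effect differed between sample types by a test of the difference itself. For sorted tumor cells minus cultured cells 15 members were called, led by Adm (2.39), Car9 (2.26) and Ddit4 (1.79) on the log2 scale. For bulk tumors minus cultured cells 14 were called, led by Adm (2.71), Car9 (2.32) and Bnip3 (1.80). All values of called members are positive, and both differences share the cultured libraries. Groups of 2 or 3 libraries are too small for a test of single outlying libraries.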

How the results depend on the processing

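With 2 libraries per group and TPM without depth, small changes of low genes cannot be resolved. Of 182 recomputed counts of called members, 162 stayed within 1.5 times the reported count and 20 did not. The 162 include counts of 0 that stayed at 0, as for sg492 in bulk tumors, so they overstate how steady the nonzero counts were. Most of the 20 were counts for sorted minus cultured or bulk minus cultured with sg495. Shares of all genes are not set beside the counts of members under alternatives, here or above, and without the fold threshold more of all genes pass as well. Without the fold threshold the counts rose to 16 (sorted against cultured controls), 22 (bulk against cultured), 25 (bulk against sorted), 31 (sg495, cultured) and 1 (sg492, cultured, Bnip3). Averaging the control, sg492 and sg495 groups gave 6 for bulk against cultured, with the Bnip3 log2 fold change reversed to 0.063; the average includes the sg495 cultured libraries. In a fit of all 18 libraries 1 member was called with sg495 in bulk tumors. Without the expression filter 9 were called for sorted minus cultured. Leaving out each library in turn gave 8 to 14 for sorted minus cultured, 4 to 13 for bulk minus cultured, 13 to 16 for sg495 in cultured cells, 9 to 10, 9 to 9 and 10 to 13 for the 3 comparisons of controls in the order above, and 0 elsewhere; a lone library was assumed to vary like the other groups. Of 1163 values of single called members under an alternative, 982 kept direction and call, 180 kept direction only and 1 reversed.

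Libraries of different groups share only a replicate number: the correlation of deviations between same-numbered libraries ran from -0.126 (control and sg492 bulk tumors) to 0.051. With a replicate block the counts were 9, 9 and 10 for the controls (Adm, Pfkl and Pgk1 were lost for bulk against sorted), 17 for sg495 in cultured cells, 10 for sorted minus cultured, 7 for bulk minus cultured, and 0 for the other guide comparisons and for anti-PD1, where the block called 514 of all genes. With the sg492 bulk numbers crossed, an alternative chosen after seeing the data, the block called 0 members.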
